A study of Sus scrofa with 2 samples.

Results

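Prostaglandin synthesis, breakdown and receptor genes were examined in porcine endometrium, the lining of the uterus. The 10 members were PTGS1, PTGS2, PTGES, PTGES2, PTGES3, AKR1B1, HPGD, PTGFR, PTGER2 and PTGER4, a list set by gene symbol, with earlier results of these data known. A transcript was taken as a member where its RefSeq accession, version number ignored, belongs to one of these symbols in the annotation of Sscrofa11.1. By this rule 9 of the 10 members had at least 1 listed transcript, out of 11071 genes that could be named in the same way. PTGER4, a receptor for prostaglandin E, was paired with no listed transcript and is not analysed here. The tissue came from 2 Yorkshire pigs slaughtered on day 18 of pregnancy (YK18, replicates 1 and 2) after artificial insemination, with 1 RNA-seq library per pig. Both uteri had been flushed with phosphate buffered saline before sampling. There was 1 condition, so the values below describe levels and the difference between 2 pigs, and no treatment, breed or day was compared.

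Prostaglandins are made from arachidonic acid that phospholipases release from membranes. The cyclooxygenases PTGS1 and PTGS2 turn it into prostaglandin H, from which PTGES and its relatives make prostaglandin E and AKR1B1 can make prostaglandin F. HPGD inactivates both, and the receptors PTGER2, PTGER4 and PTGFR carry the signal into the cell. In the pig, prostaglandin F from the uterus ends the life of the corpora lutea outside pregnancy, whereas prostaglandin E is thought to protect them around the time the conceptus attaches.

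Values are RPKM as deposited, with the rows of a gene summed. RPKM stands for reads per kilobase of length and per 1000000 reads of the library. The lengths used were not given, and those that fit the values were often short for mRNAs, as described below. Levels of different genes were therefore not shown to be comparable per kilobase of transcript. Low RPKM values rise in steps of 1 read, and from these steps the totals behind the values were 7466979 reads in replicate 1 and 7023108 reads in replicate 2. The number of reads behind each value was worked out in the same way, as the smallest whole number that the value allows. Summed over all rows, these reads made up 90.2% of the total in replicate 1 and 90.3% in replicate 2, and the true number of a gene can be a whole multiple of the one given. Where the rest of the totals lies was not tested. Of the markers that define the tissue, EPCAM, an epithelial adhesion protein, was at 5106 and 5128 RPKM, and 5 of 6 epithelial markers were above 0 in both libraries, with KRT8 listed at 0. By the exact binomial test described below, KRT18 and CDH1 were higher in replicate 1 and CLDN4 in replicate 2, and the epithelial markers summed to 11970 and 10845 RPKM. The 5 listed stroma markers summed to 69452 and 44378 RPKM, most of it COL3A1, for which the length that fits the values was only 93 nt. COL1A2 had 1 read in replicate 1 and was listed at 0 in replicate 2. By the same test COL3A1 and LUM were higher in replicate 1, but DCN, at 211.0 and 272.5 RPKM, was higher in replicate 2. VIM, at 19.5 and 24.9 RPKM, did not pass. Of the 4 gland markers, ACP5 was at 232.7 and 356.4 RPKM and FOXA2 had 1 read and 3 reads. SPP1 was listed at 0 and UTMP had no listed transcript. Of 6 skeletal muscle markers 5 were higher in replicate 1 by that test and ACTA1 had 1 read, with a summed level of 421.6 RPKM against 9.55 RPKM in replicate 2. Of 3 listed endothelium markers, KDR was higher in replicate 1, at 3764 and 3183 RPKM in replicates 1 and 2. VWF was higher in replicate 2, at 2452 and 2732 RPKM, and PECAM1 did not pass. None of the 3 smooth muscle markers above 0 passed. The 3 erythrocyte markers summed to 3552 and 8436 RPKM, nearly all of it HBB, with ALAS2 listed at 0. The 5 leukocyte markers summed to 668 and 1038 RPKM, most of it PTPRC, and all 5 were above 0 in both libraries. PTPRC and CD3E were higher in replicate 2 by the same test, whereas CD14, CD163 and NKG7 did not pass. CD163 was lower in replicate 2, at 34.7 and 20.8 RPKM in replicates 1 and 2. Of the 4 conceptus markers, IFNG, which the pig conceptus secretes at this stage, was at 682 and 89.1 RPKM in replicates 1 and 2. IFNG was thus higher in replicate 1, also by the exact binomial test. TFAP2C, at 17.5 and 14.1 RPKM, did not pass the test, and PAG2 and CYP19A3 had no listed transcript. The tissue is a mixture of cells, and fewer cells of a type cannot be told apart from less RNA per cell.

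Of the 9 listed members, 8 were above 0 RPKM in both libraries, where 63.1% of all named genes were. In RPKM, HPGD and PTGS2 stood above the others, AKR1B1 came next, then PTGER2, and the remaining members lay below 100 RPKM. Counted in recovered reads, PTGER2 (1544 and 905 reads) was above AKR1B1 (402 and 274 reads) in both pigs and above HPGD (1219 reads) in replicate 1. Among the 21660 transcripts above 0 in both libraries the 8 members had a median percentile of 72.6 in replicate 1 and 71.9 in replicate 2, a mean of 72.3 ± 0.547 (SD, n = 2 pigs). The middle transcript of that background was at 11.6 and 12.9 RPKM in replicates 1 and 2.

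The cyclooxygenases differed widely in level. PTGS2, the inducible cyclooxygenase (NM_214321.1), was at 1316 and 1621 RPKM in replicates 1 and 2, a mean of 1469 ± 215.6 RPKM (SD, n = 2 pigs). It ranked 664th and 462nd among the 21660 transcripts, which is percentile 96.9 and 97.9. PTGS1, the cyclooxygenase that many tissues make at a steady level (XM_001926129.4), was at 22.9 and 46.9 RPKM in replicates 1 and 2. Its mean was 34.9 ± 17.0 RPKM (SD, n = 2 pigs) and its percentile 58.5 and 65.7. Per length, PTGS2 was thus 57.5 times PTGS1 in replicate 1 and 34.6 times in replicate 2, and the ranges of the genes did not overlap. In reads, with no division by length, PTGS2 was 86.5 times and 52.0 times PTGS1, so the order was the same on both scales and in both pigs.

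Among the enzymes that act on prostaglandin H, AKR1B1 was highest per length. AKR1B1, an aldose reductase with prostaglandin F synthase activity (NM_001001539.2), was at 555 and 402.2 RPKM in replicates 1 and 2, with a mean of 478.6 ± 108.1 RPKM (SD, n = 2 pigs). PTGES, the inducible microsomal prostaglandin E synthase (NM_001038631.1), was at 46.1 and 72.6 RPKM, with a mean of 59.4 ± 18.8 RPKM (SD, n = 2 pigs). PTGES2, a membrane-associated prostaglandin E synthase (XM_001927936.3), was at 20.8 and 15.6 RPKM in replicates 1 and 2, with a mean of 18.2 ± 3.66 RPKM (SD, n = 2 pigs). In both pigs the level of PTGES was therefore above that of PTGES2, by 2.22 times in replicate 1 and 4.66 times in replicate 2. The level of AKR1B1 was 12.0 times that of PTGES in replicate 1 and 5.54 times in replicate 2. Counted in reads this excess was smaller, 2.98 times and 1.37 times.

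PTGES3, which encodes the cytosolic prostaglandin E synthase also known as the co-chaperone p23, has 2 listed transcripts, and both were listed at 0 in both libraries. A transcript at 0 in this table is not shown to be absent, since EEF1A1 and FTL, which every cell uses, were listed at 0 too. Of the transcripts of named genes with 1 listed transcript, 21.1% were at 0 in both libraries, and of those of genes with 2 or more, 70.8%. PTGFR has 2 listed transcripts, of which NM_214059.1 was listed at 0 in both libraries. Of the members, only these 2 genes have more than 1 listed transcript, and all 3 member transcripts at 0 belong to them. Whether the number of listed transcripts set these zeros was not tested.

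HPGD, the 15-hydroxyprostaglandin dehydrogenase that starts prostaglandin breakdown (NM_001190248.1), had the highest level of the members in RPKM. It was at 1540 and 3073 RPKM in replicates 1 and 2, with a mean of 2307 ± 1084 RPKM (SD, n = 2 pigs). It ranked 519th in replicate 1 and 187th in replicate 2, which is percentile 97.6 and 99.1. Per length, HPGD was 1.17 times PTGS2 in replicate 1 and 1.90 times in replicate 2, but in reads it was 0.344 and 0.557 times PTGS2, so the order turned with the scale. Their ranges overlapped, since HPGD in replicate 1 was below PTGS2 in replicate 2, so per length the order of the top members was not larger than the spread between the pigs.

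PTGER2, a prostaglandin E receptor that raises cyclic AMP (XM_003353488.2), was the higher of the listed receptors. It was at 144.9 and 90.3 RPKM in replicates 1 and 2, with a mean of 117.6 ± 38.6 RPKM (SD, n = 2 pigs), at percentile 79.0 and 73.1. PTGFR, the prostaglandin F receptor, was at 12.6 and 15.2 RPKM in replicates 1 and 2, with a mean of 13.9 ± 1.88 RPKM (SD, n = 2 pigs), at percentile 51.1 and 52.2. PTGER2 was 11.5 times PTGFR in replicate 1 and 5.93 times in replicate 2. The lengths behind these receptors were similar, 1427 nt and 1675 nt, and in reads the excess was 9.83 times and 5.06 times.

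**Figure D1:**
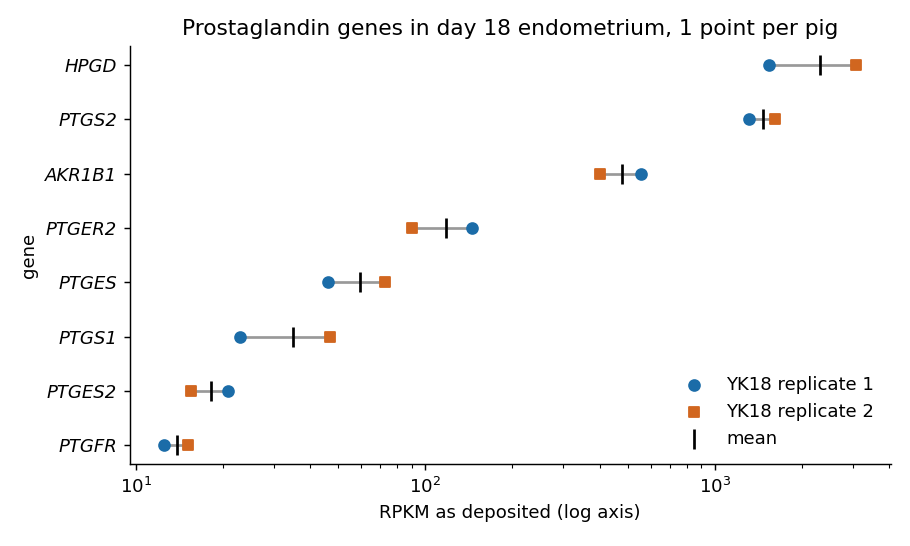
RPKM of the 8 members above 0, on a log axis, with a circle for YK18 replicate 1, a square for replicate 2 and a bar for the mean. HPGD and PTGS2 lie at 1316 RPKM or more and overlap, PTGFR lies lowest at 12.6 and 15.2 RPKM, and PTGES3 at 0 cannot be drawn.

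The order by mean RPKM was HPGD, PTGS2, AKR1B1, PTGER2, PTGES, PTGS1, PTGES2, PTGFR. Neighbours overlapped between the pigs for HPGD with PTGS2 and for PTGES with PTGS1, where PTGS1 in replicate 2, at 46.9 RPKM, was above PTGES in replicate 1, at 46.1 RPKM. Within each pig, however, PTGES was above PTGS1, at 46.1 against 22.9 RPKM in replicate 1 and 72.6 against 46.9 RPKM in replicate 2. The other neighbours did not overlap, although PTGES2 and PTGFR came as close as 15.6 and 15.2 RPKM. With 2 pigs, no test of these orders was made.

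The order also depended on the length by which reads were divided. The smallest lengths that give whole reads were 97 nt for AKR1B1, 106 nt for HPGD, 240 nt for PTGS1, 329 nt for PTGES2, 361 nt for PTGS2 and 392 nt for PTGES. These lengths are short for mRNAs and were not shown to be transcript lengths, so the RPKM of AKR1B1 and HPGD may be inflated beside PTGER2 and PTGFR. Such lengths were common, with a median of 212 nt over mRNA transcripts with a mean of at least 20 reads. Of those transcripts 76.6% were under 400 nt. In recovered reads PTGS2 led, with 3548 reads in replicate 1 and 4110 reads in replicate 2, against 1219 and 2288 reads for HPGD. PTGER2 came next in the sum over both pigs, with 1544 and 905 reads, and was 3.84 and 3.30 times AKR1B1, which had 402 and 274 reads. On the RPKM scale PTGER2 was 0.261 and 0.225 times AKR1B1. PTGFR, lowest in RPKM, had 157 and 179 reads, more than PTGS1 with 41 and 79 and PTGES2 with 51 and 36, and about as many as PTGES with 135 and 200. The order of PTGS2 over PTGS1, of PTGES over PTGES2, of PTGER2 over PTGFR and of AKR1B1 over PTGES was the same on both scales in each pig. So was that of PTGES over PTGS1.

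**Figure D2:**
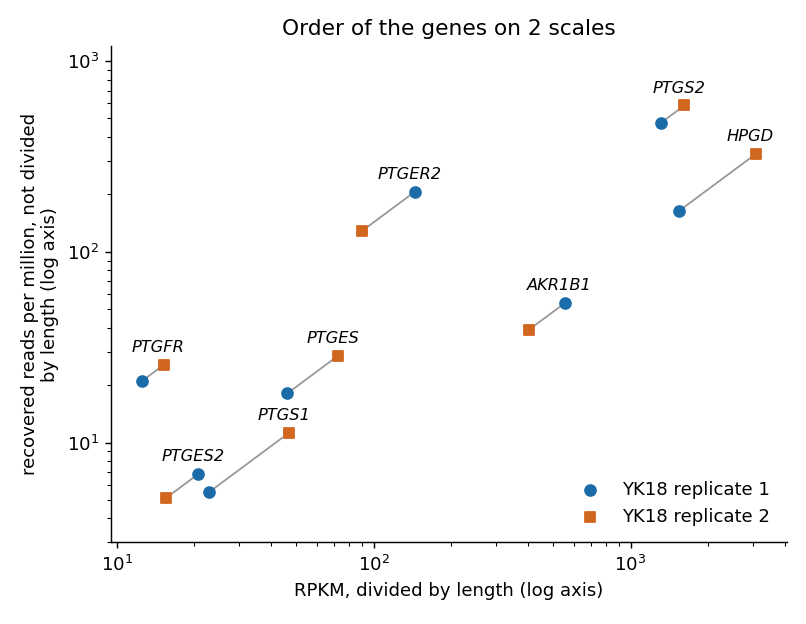
Level of each member in RPKM (x axis, log) against recovered reads per 1000000 reads of the library (y axis, log), with a line joining the 2 pigs of YK18. PTGER2 and PTGFR, whose lengths are over 1000 nt, lie above the other members of like RPKM, and PTGS2 is highest in reads while HPGD is highest in RPKM.

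The pigs were then compared with each other. Over the 20166 transcripts that averaged 1 RPKM or more, the reads of 17.3% differed between the libraries by an exact binomial test with Benjamini-Hochberg adjustment, and so did those of 6 of the 8 members. This test compares 2 libraries of 1 condition and covers counting error only, because there was 1 library per pig. Reads from PCR are not independent molecules, so even the counting error can be understated. The test passes more often with more reads. Of all transcripts with 1000 to 10000 reads in both libraries together 48.9% passed, of those with 200 to 1000 reads 25.4%, and of those with 50 to 200 reads 14.8%. The members that passed were HPGD, PTGS2 and PTGER2 in the first of these classes, AKR1B1 and PTGES in the second and PTGS1 in the third.

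Both cyclooxygenases, PTGES and HPGD were higher in replicate 2, as 9.66% of all these transcripts were by the same test. HPGD was 2.00 times as high in replicate 2 (95% exact binomial interval 1.86 to 2.14, adjusted p = 2.21e-86). PTGS1 was 2.05 times as high (exact interval 1.39 to 3.06, adjusted p = 0.00199), from few reads and so with a wide interval. PTGES was 1.58 times as high (exact interval 1.26 to 1.97, adjusted p = 0.000571). The smallest of these differences was in PTGS2, at 1.23 times (exact interval 1.18 to 1.29, adjusted p = 6.00e-18). HPGD and 3 enzymes of synthesis were thus higher in the same pig, and AKR1B1, also an enzyme of synthesis, in the other.

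PTGER2 and AKR1B1 were higher in replicate 1, as 7.65% of all these transcripts were. PTGER2 was 1.60 times as high in replicate 1 as in replicate 2 (exact interval 1.48 to 1.74, adjusted p = 1.74e-28). AKR1B1 was 1.38 times as high (exact interval 1.18 to 1.61, adjusted p = 0.000542). The 2 members that missed the threshold were PTGFR, with a ratio of replicate 2 to replicate 1 of 1.21 (exact interval 0.973 to 1.51, adjusted p = 0.330), and PTGES2, with 0.750 (exact interval 0.476 to 1.17, adjusted p = 0.595). The intervals of both include 1 and also a difference as large as that of AKR1B1.

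**Figure D3:**
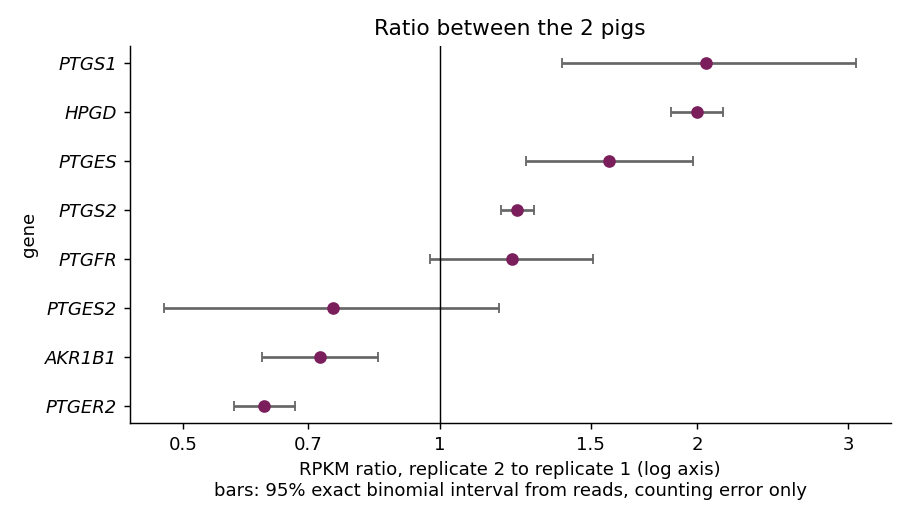
Ratio of replicate 2 to replicate 1 in RPKM for each member (points, log axis) with the 95% exact binomial interval from recovered reads, which covers counting error only. HPGD and PTGS1 lie near 2, PTGER2 is lowest at 0.623, and the intervals of PTGFR and PTGES2 cross 1.

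On the log2(RPKM + 1) scale the differences of replicate 2 minus replicate 1 ran from -0.68 for PTGER2 to 1.00 for PTGS1, with a median of 0.28. Over all transcripts that averaged 1 RPKM or more the median difference was 0.06 and the SD 0.73. The median size of the difference, sign ignored, was 0.55 in the members and 0.32 in all transcripts. A difference of at least 2-fold was found in 1 of the 8 members and in 13.1% of all transcripts. The count rests on the threshold, since PTGS1 lay just past it at 1.0034 and HPGD just short of it at 0.9963. With the libraries rescaled by their median ratio of 1.06 the count was 0. That ratio is also the ratio of the library totals, so this rescaling in effect undoes the division by the totals. Markers of other cells differed between the libraries too, as given above, although those of smooth muscle did not pass and those of endothelium were split in direction. The sums of the stroma markers, mostly COL3A1, and of the skeletal muscle markers were higher in replicate 1, like PTGER2 and AKR1B1. Within the stroma list DCN went the other way. The conceptus marker IFNG was also higher in replicate 1, while TFAP2C did not pass the test. The sum of the epithelial markers was higher in replicate 1 as well, with KRT18 and CDH1 higher there and CLDN4 higher in replicate 2. The sums of the erythrocyte markers, mostly HBB, and of the leukocyte markers, mostly PTPRC, were higher in replicate 2, like HPGD. Of the 5 leukocyte markers only PTPRC and CD3E passed the test, and CD163 was lower in replicate 2. ACP5, the only gland marker with more than 3 reads in a library, was also higher in replicate 2. HPGD, at 2.00 times, differed by less than the summed erythrocyte markers and by more than the summed leukocyte markers. The part of blood, epithelium, endothelium, stroma, gland, muscle or conceptus RNA in the differences of the members was not tested.

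**Figure D4:**
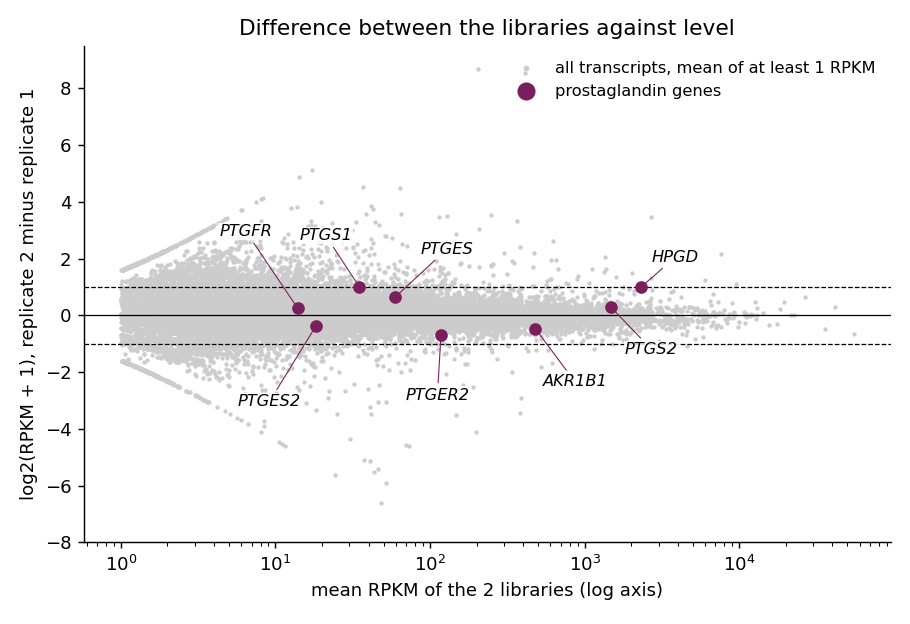
Difference between the libraries, log2(RPKM + 1) of replicate 2 minus replicate 1, against mean RPKM (log axis), with all 20166 transcripts in grey and the 8 members in purple. Dashed lines mark 2-fold. PTGS1 and HPGD lie on the upper line, at 1.00 each, and the other members lie between the lines.

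Other genes of the pathway were taken from lists of 35 genes, of which 24 had a listed transcript and 17 a mean of at least 1 RPKM. Of these 17, 3 were higher in replicate 1 and 2 in replicate 2 by the exact binomial test, where 7.65% and 9.66% of all transcripts were, and 12 did not pass. Their median difference on the log2(RPKM + 1) scale was -0.08, from -1.22 to 1.90. The smallest lengths that give whole reads ran from 42 nt for PTGR1 to 1723 nt for PTGDR2. As for the members, RPKM levels of different genes were therefore not shown to be comparable. The 6 genes listed at 0 in both libraries were PLA2G6, MGLL, PTGDS, HPGDS, ALOX5AP and LTA4H.

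Of the 9 genes for arachidonate release, 5 had a listed transcript and 3 had reads in each library. FAAH, which splits fatty acid amides such as anandamide into arachidonic acid, was at 112.9 and 383.4 RPKM in replicates 1 and 2 (129 and 412 reads, exact binomial test, adjusted p = 2.64e-37). PLA2G12A, a secreted phospholipase, was at 269.2 and 204.9 RPKM (adjusted p = 0.000202 by the exact binomial test). PLA2G4A, the cytosolic phospholipase that prefers arachidonate, was at 44.1 and 29.2 RPKM over its 3 listed transcripts and did not pass the exact binomial test (adjusted p = 0.399).

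Of the 8 other enzymes of prostanoid synthesis, 6 had a listed transcript, and PTGIS, the prostacyclin synthase, was highest, at 436.3 and 279.7 RPKM in replicates 1 and 2. It was the only gene of this list that passed (exact binomial test, adjusted p = 3.26e-13), and its range in RPKM overlapped that of AKR1B1. In reads PTGIS, with 834 and 509 over its 2 transcripts, was above AKR1B1 in each pig. TBXAS1, the thromboxane synthase, was at 17.6 and 16.6 RPKM from 18 and 16 reads. The carbonyl reductase CBR3 was at 19.1 and 18.6 RPKM, whereas CBR1, which can turn prostaglandin E into prostaglandin F, was at 1.39 and 0.738 RPKM from 2 reads and 1 read. AKR1C1, the steroid and prostaglandin reductase on which the study centred, was read from 1 chosen transcript rather than from summed rows. This transcript was at 21.2 and 120.8 RPKM (exact binomial test, adjusted p = 2.07e-17), a larger difference than in any member.

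In transport and breakdown, SLCO2A1, which carries prostaglandins into cells for breakdown, was at 201.9 and 154.8 RPKM in replicates 1 and 2. PTGR1, the reductase that follows HPGD in the breakdown pathway, was at 302.9 and 281.4 RPKM from 95 and 83 reads, at a length of 42 nt. Neither passed the exact binomial test (adjusted p = 0.106 and 0.958). PTGR2 had 1 read in replicate 1 and was listed at 0 in replicate 2.

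All 5 other receptors with a listed transcript were below PTGER2 in both pigs. PTGDR2, a prostaglandin D receptor, was at 28.2 and 11.6 RPKM in replicates 1 and 2, from 363 and 140 reads (exact binomial test, adjusted p = 3.19e-19), and so had the same direction as PTGER2. PTGDR, the other prostaglandin D receptor, was at 6.13 and 6.52 RPKM from 19 reads in each. PTGIR, the prostacyclin receptor, was at 2.79 and 2.96 RPKM. The prostaglandin E receptors PTGER1 and PTGER3 were below 2 RPKM in both pigs, with at most 7 reads in a library, so small differences could not be detected at this depth.

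The lipoxygenase branch makes other mediators from arachidonic acid, and its 3 genes above 0 had at most 25 reads in a library. ALOX15 was at 3.88 and 17.2 RPKM in replicates 1 and 2 (6 and 25 reads, exact binomial test, adjusted p = 0.00472). ALOX12 was at 7.57 and 19.3 RPKM from 10 and 24 reads and missed the threshold of the exact binomial test (adjusted p = 0.0689). LTC4S, the leukotriene C synthase, was at 9.99 and 7.44 RPKM from 10 and 7 reads.

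**Figure D5:**
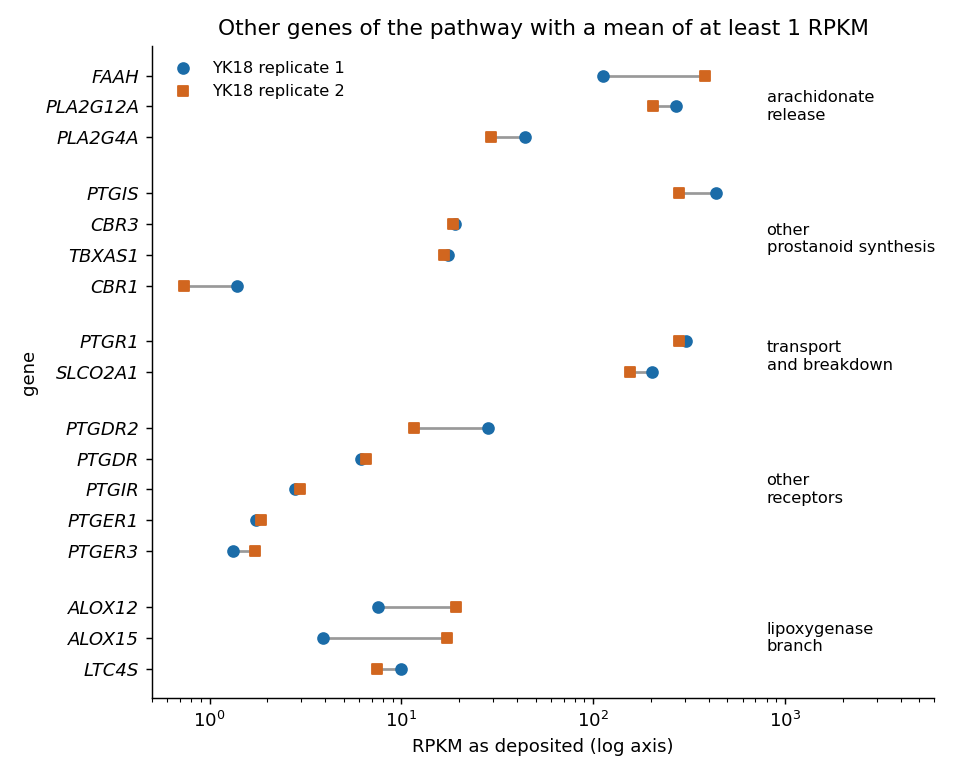
RPKM (log axis) of the 17 other genes of the pathway that averaged 1 RPKM or more, by role, with a circle for YK18 replicate 1 and a square for replicate 2. FAAH, ALOX12 and ALOX15 show wide gaps with replicate 2 higher and PTGDR2 one with replicate 1 higher, and PTGIS, PTGR1, PLA2G12A, FAAH and SLCO2A1 lie above 100 RPKM in both pigs. The lengths behind these values differ widely, from 42 nt for PTGR1 to 1723 nt for PTGDR2.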

How the data were processed

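Endometrial RNA of 2 YK18 pigs was sequenced, 1 library per pig. Per transcript, HTSeq counts were turned by the authors into the deposited RPKM values. The aligner, genome build and lengths are not given in the sources used here, so no coordinates are printed. Gene symbols were read from RefSeq (Sscrofa11.1), which named 16072 of 38222 mRNA transcripts (42.0%), so a member may have rows that could not be named. Totals were found as the largest at which 57 of the 60 lowest values gave whole lengths. Reads were the smallest whole numbers at lengths up to 20000 nt (tolerance 2e-06 reads plus 3e-09 of the reads), and were found for all 25584 transcripts above 0. They were tested against the ratio of the totals with a two-sided exact binomial test, Benjamini-Hochberg adjusted over those 25584. For genes with several transcripts above 0 the reads were summed and the adjustment was made over genes. The method was tested on simulated data. The RPKM are not counts, so no count model was fitted. The pseudocount was 1, the filter a mean of at least 1 RPKM and the threshold an adjusted p under 0.05. Intervals are 95% Clopper-Pearson. Python 3.11.15, numpy 2.4.6, pandas 2.3.3, scipy 1.17.1 and matplotlib 3.10.9 were used. All members and all listed pathway genes with a mean of at least 1 RPKM are named, as well as AKR1C1. The members and lists were chosen with earlier results of these data known. Alternatives were other pseudocounts, filters, backgrounds, scalings, row rules, adjustments, each replicate left out and recovered reads.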

Additional observations from a re-analysis of the deposited data

How the results depend on the processing

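No paired analysis was possible because there is only 1 group. The 8 members above 0 in both libraries fell to 4 when the accession version had to match the annotation, because fewer transcripts could be named. The median percentile of the members, 72.3, was 70.2 among transcripts averaging 1 RPKM or more and 77.9 in recovered reads. Among all listed transcripts it was 84.4, there over all 9 listed members, PTGES3 at 0 included. It was from 71.9 to 72.6 without either replicate. The count of members with a 2-fold difference, 1, was 0 with the median ratio and 0 with each library at a sum of 1000000, and 1 with pseudocounts of 0.1 and 0.01. The 6 members whose reads differed became 3 with Bonferroni adjustment (HPGD, PTGS2 and PTGER2) and were 6 with the median ratio. In recovered reads, chosen after seeing the data, the log2 ratio turned from 0.57 to -1.19 for HPGD to PTGS2, from -2.05 to 1.83 for PTGER2 to AKR1B1, and against PTGFR from 2.07 to -0.029 for PTGES, from 1.24 to -1.56 for PTGS1 and from 0.38 to -1.97 for PTGES2. The lengths set these changes by construction. With 2 pigs the SD is imprecise, and the 41 reads of PTGS1 and 51 of PTGES2 in replicate 1 limit their ratios.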
